A study of Mus musculus with 12 samples.

Results

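The 107 protein-coding genes of oxidative phosphorylation were followed in brain cells sorted by the activity of the p16 promoter. They were found by gene symbol among the 47643 gene identifiers of the bulk count table: 94 nuclear genes (symbols starting Nduf, Uqcr, Cox4 to Cox8 and Atp5, together with Sdha, Sdhb, Sdhc, Sdhd and Cycs) and 13 genes of the mitochondrial genome. Pseudogenes and other genes that do not code for protein were left out, 11 in all. The cells came from 5 old male p16-3MR mice on the C57BL/6 background, aged 113, 115, 116, 116 and 116 weeks (mice 1 to 5). All of the mice carried the p16-3MR transgene, in which the p16 promoter drives a red fluorescent protein (RFP), Renilla luciferase and a truncated viral thymidine kinase, so both groups carried it. Each mouse gave 1 library of viable brain cells with low or no RFP signal (RFPneg) and 1 library of cells with high signal (RFPpos), which makes 5 pairs. The gate follows the transgene and not the endogenous p16 protein. The paper reports that its sorted cells with high RFP were richer in cells with much p16 transcript. RNA was counted by 3′ tags, in which each molecule is read near its 3′ end, and 177287 to 415834 counts fell on genes per library. Levels are given in CPM, which scales every library to the same total of counts on genes.

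Oxidative phosphorylation takes electrons from NADH and succinate through complexes I and II to complex III, cytochrome c and complex IV, and the proton gradient made on the way drives ATP synthase (complex V). The mitochondrial genome encodes a few subunits of complexes I, III, IV and V, and all other subunits are made from nuclear genes and imported. Each of these complexes except complex II is thus built from the products of both genomes. Microglia, the resident macrophages of the brain, can shift between oxidative phosphorylation and glycolysis when they are activated.

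Of the nuclear genes of complexes I, III, IV and V 21 fell in RFPpos cells, most of them in complexes I and IV and ATP synthase, and no mitochondrial gene was called. Of the 94 nuclear genes, 67 had enough counts to be tested by edgeR's quasi-likelihood test with the mouse as a block, and 21 of them (31.3%) were called lower in RFPpos at a Benjamini-Hochberg adjusted p under 0.05, where 11.3% of all 4210 tested genes were called lower. No nuclear member was called higher, where 10.3% of all tested genes were, and 0 were higher at an unadjusted p under 0.05 or by the likelihood ratio test, DESeq2 or limma with voom. The median log2 fold change of the 67 genes was -0.72 (range -1.85 to 0.32) against -0.02 for all tested genes, and 62 of the 67 were below 0. In 31 of the 67 (46.3%) the RFPpos library was the lower one in all 5 mice, against 16.0% of all tested genes. With a threshold of 1 on the absolute log2 fold change as well, 9 of the 67 nuclear members (13.4%) were called lower, against 9% of all tested genes. All 5 RFPpos libraries lay below all 5 RFPneg libraries in 13 of the 67 (Atp5e, Atp5d, Atp5g3, Atp5mpl, Ndufa11, Ndufb9, Ndufa7, Uqcr10, Uqcrq, Cox7a2, Cox5a, Cox8a and Cox7c), against 7.93% of all tested genes. In bulk samples, fewer cells of a type and less RNA per cell cannot be told apart.

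Of the 13 mitochondrial genes, 7 were tested and 0 were called in either direction by edgeR, DESeq2 or limma with voom, and 0 had an unadjusted p under 0.05 in the quasi-likelihood test. Their median log2 fold change was -0.02, from -0.26 (mt-Co1) to 0.17 (mt-Nd4).

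**Figure D1:**
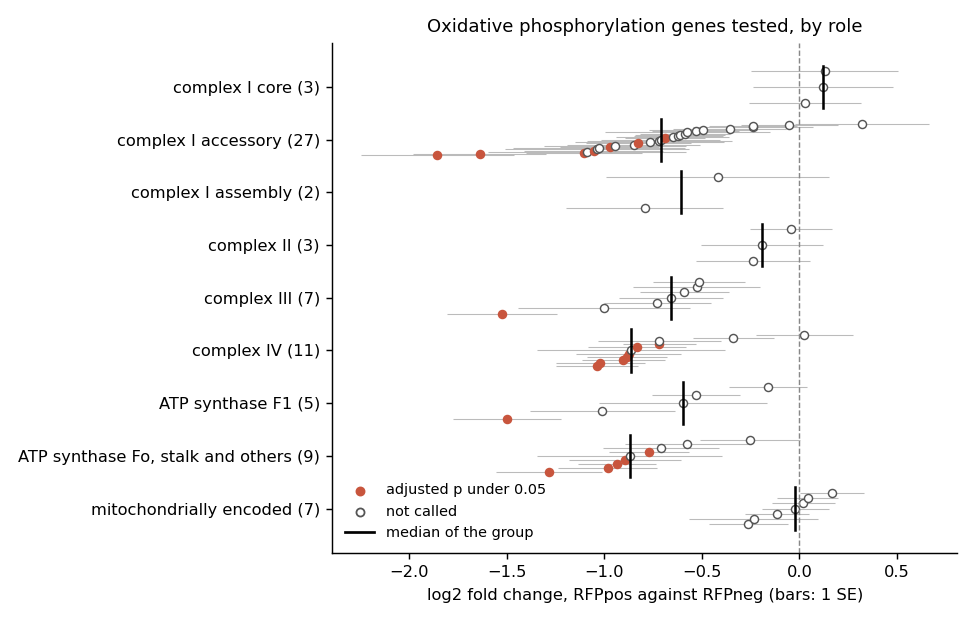
Log2 fold change of RFPpos against RFPneg (x axis) for each of the 67 nuclear and 7 mitochondrial genes tested, grouped by role (y axis, number tested in brackets), with bars of 1 SE, filled points for an adjusted p under 0.05 and black lines for the group medians. The filled points, 21 in all, sit to the left of 0, and the mitochondrially encoded genes and the 3 core subunits of complex I sit around 0.

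The cells themselves differed between the gates. The 20 microglia markers (P2ry12 and Tmem119 among them) were called higher in RFPpos in 20 of 20 cases, and together they took 1.76 to 2.70% of the counts in RFPneg and 3.83 to 5.01% in RFPpos. All tested endothelial markers were called lower (8 of 8, summed share 0.164 to 0.671% in RFPneg and 0.0121 to 0.0383% in RFPpos), as were those of oligodendrocytes (8 of 8, 0.453 to 1.81% and 0.0575 to 0.334%), monocytes and neutrophils (5 of 5, 0.276 to 0.744% and 0.0319 to 0.0717%) and mural cells (2 of 2, 0.0255 to 0.0580% and 0.00135 to 0.0116%). Of choroid plexus and ependyma 1 marker was tested, and it was called lower (0.0921 to 0.520% and 0.0176 to 0.163%). The other lists were called lower in part: 3 of 9 tested astrocyte markers (0.404 to 0.590% and 0.0948 to 0.580%), 1 of 3 of neurons (0.0288 to 0.0503% and 0.00479 to 0.0229%) and 1 of 2 of fibroblasts (0.0118 to 0.0286% and 0 to 0.0140%). In RFPpos the mural markers Kcnj8, Abcc9, Tagln, Myh11 and Higd1b had 0 counts, as had Opalin, Ccdc153, Tmem212, Ly6c2, Mmp9, Col3a1, Lum and Pdgfra, and no endothelial, astrocyte or neuronal marker was at 0. The part of these cells in the lower nuclear genes was not tested. The share of reads on no gene was also higher in RFPpos (38.4 to 48.6%, against 32.1 to 37.2%), and its part was not tested either.

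The summed levels show the split between both genomes in each mouse. The 94 nuclear genes together stood at 12940, 11387, 12414, 9402 and 10388 CPM in RFPneg of mice 1 to 5 and at 5598, 6655, 8307, 8528 and 5947 CPM in RFPpos. All RFPpos sums were below all RFPneg sums, and the smallest step was in mouse 4. The within-mouse log2 difference was -0.70 ± 0.39 (SD, n = 5), a geometric mean of 0.615 times the RFPneg level, with 0.907 times in mouse 4 and 0.433 times in mouse 1.

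The 13 mitochondrial genes together stood at 53213, 46680, 41331, 39131 and 39642 CPM in RFPneg and at 54624, 37399, 41116, 46035 and 43378 CPM in RFPpos. Here the groups overlapped throughout, with the RFPpos library lower in 2 mice and higher in 3. The log2 difference was 0.01 ± 0.21 (SD, n = 5).

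The ratio of both sums within a library needs no library size. For each 100 mitochondrial counts there were 24.3, 24.4, 30.0, 24.0 and 26.2 nuclear counts in RFPneg and 10.2, 17.8, 20.2, 18.5 and 13.7 in RFPpos. The ratio was thus lower in RFPpos in 5 of 5 mice and the groups did not overlap. The log2 difference was -0.72 ± 0.37 (SD, n = 5). These sums are descriptions with no test, and the genes with the most counts weigh most in them. When each of the 107 genes counted alike, as the mean of log2(CPM + 1), the difference was -0.49. Mouse 4 went in the opposite direction (0.33). In mouse 4, mt-Co2, mt-Atp6 and mt-Co3 had 1 count each in RFPneg and 0 in RFPpos. The part of genes with so few counts was not tested. Over the 67 nuclear and 7 mitochondrial genes that were tested, the difference was -0.69 and below 0 in all 5 mice. That alternative was chosen after seeing the data. It moved mouse 4 to -0.27, and other mice moved too. Mouse 1 went from -0.74 to -1.25 and mouse 5 from -1.39 to -1.20.

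**Figure D2:**
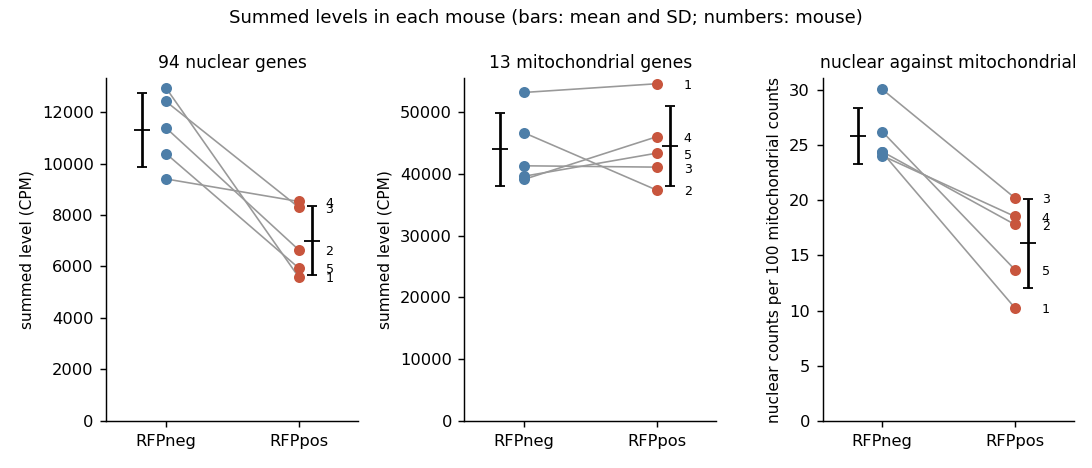
Summed level of the 94 nuclear genes and of the 13 mitochondrial genes (left and middle, CPM) and nuclear counts per 100 mitochondrial counts (right) in each RFPneg and RFPpos library, with lines joining the libraries of 1 mouse, mouse numbers beside the points, and bars for mean and SD. The nuclear sum and the ratio are lower in RFPpos in every mouse, and the mitochondrial sum is lower in 2 and higher in 3.

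Complex I oxidises NADH. The core subunits of its matrix arm, which carry the flavin and the iron-sulfur clusters, are nuclear, those of its membrane arm are mitochondrial, and its many accessory subunits are nuclear and surround the core. All 3 nuclear core subunits with enough counts had fold changes just above 0 and none was called. Ndufs1, the largest of the iron-sulfur subunits, had 56.4, 76.5, 98.6, 76.5 and 76.7 CPM in RFPneg and 35.9, 69.0, 94.1, 116 and 86.5 CPM in RFPpos. Its groups overlapped, with a log2 fold change of 0.03 (SE 0.29, edgeR adjusted p = 0.964). Ndufv2, a subunit of the NADH-oxidising module, had a log2 fold change of 0.12 (SE 0.36). The other 4 core genes had 43 to 91 counts over all libraries and were not tested. In the fit of all genes with at least 1 count, Ndufs7 was at -1.24 (66 counts in RFPneg and 25 in RFPpos, lower in 4 of 5 mice, adjusted p = 0.147), Ndufs8 at -0.36, Ndufs3 at -0.031 and Ndufv1 at 0.072.

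Of the 27 accessory subunits tested 7 were called, and 26 had a fold change below 0 (median -0.71). Ndufb9, a membrane arm subunit (chr15:58933756-58939488, GRCm38, plus strand), had 180, 163, 120, 109 and 113 CPM in RFPneg and 62.9, 79.4, 40.3, 24.0 and 0 CPM in RFPpos. The groups did not overlap, and the RFPpos library of mouse 5 held no count. Ndufb9 had the largest fall among the members called, -1.85 on the log2 scale (SE 0.39, adjusted p = 0.00199). Ndufa11, a subunit of the membrane arm (chr17:56717767-56722141), had 95.9, 107, 152, 92.6 and 73.4 CPM in RFPneg and 35.9, 17.3, 67.2, 43.9 and 12.4 CPM in RFPpos. Here too every RFPpos library was below every RFPneg library (log2 fold change -1.64, SE 0.34, adjusted p = 0.00174). Ndufa7, with 140 to 246 CPM in RFPneg and 65.6 to 132 CPM in RFPpos, fell by 0.97 on the log2 scale (SE 0.25, adjusted p = 0.0097). Ndufb6, Ndufb3, Ndufb2 and Ndufb4 were the other accessory genes called, with log2 fold changes of -1.10, -0.69, -0.82 and -1.05. Ndufa6, the accessory gene with the highest mean CPM, had 225 to 334 CPM in RFPneg and 121 to 311 CPM in RFPpos, and was not called (-0.53, SE 0.22, adjusted p = 0.101). The 1 accessory gene above 0 was Ndufb7 (0.32, SE 0.34), whose groups overlapped.

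Assembly factors build the complex and are no part of it. Of the 8 Ndufaf genes only Ndufaf8 and Ndufaf4 were tested, and neither was called. Ndufaf8, with 50.1 to 90.2 CPM in RFPneg and 10.4 to 85.2 CPM in RFPpos, had a log2 fold change of -0.79 (SE 0.40, adjusted p = 0.18).

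Complex II, succinate dehydrogenase, links the respiratory chain to the TCA cycle and is encoded by the nucleus alone. None of its 3 tested genes was called. Sdha, the flavoprotein subunit, had 186, 199, 183, 177 and 147 CPM in RFPneg and 166, 155, 166, 192 and 181 CPM in RFPpos. The RFPpos libraries lay within the range of the RFPneg libraries, with a log2 fold change of -0.04 (SE 0.21, adjusted p = 0.925). Sdhb and Sdhc were at -0.19 and -0.24.

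Complex III passes electrons from ubiquinol to cytochrome c. All 7 tested genes were below 0, and 1 was called. Uqcr10, a small membrane subunit (chr11:4701973-4704342, minus strand), had 118, 127, 156, 181 and 143 CPM in RFPneg and 27.0, 51.8, 71.7, 87.8 and 24.7 CPM in RFPpos. The groups were well apart, and Uqcr10 fell by 1.52 on the log2 scale (SE 0.28, adjusted p = 0.000658). Uqcrc2, a core subunit on the matrix side, had 135, 291, 224, 201 and 184 CPM in RFPneg and 130, 135, 197, 136 and 90.6 CPM in RFPpos. It was lower in 5 of 5 mice with overlapping groups and was not called (-0.59, SE 0.23, adjusted p = 0.0741). Cycs, the somatic cytochrome c that carries electrons on to complex IV, had 10, 4, 15, 14 and 12 counts in RFPneg and 2, 5, 5, 5 and 0 in RFPpos, too few to be tested. When all genes with at least 1 count were fitted, its log2 fold change was -1.54 with an adjusted p of 0.0817.

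Complex IV, cytochrome c oxidase, reduces oxygen. Its catalytic subunits are mitochondrial, and its nuclear subunits are small proteins around them. This complex held 7 of the 21 called genes among 11 tested, with a median of -0.86. Cox7a2 (chr9:79755361-79759878) had 276, 316, 351, 189 and 220 CPM in RFPneg and 126, 128, 148, 144 and 103 CPM in RFPpos. Cox5a had 186, 204, 224, 169 and 157 CPM in RFPneg and 62.9, 100, 103, 104 and 90.6 CPM in RFPpos. In both genes every RFPpos library was below every RFPneg library. The log2 fold changes were -1.04 (SE 0.21, adjusted p = 0.0013) for Cox7a2 and -1.02 (SE 0.23, adjusted p = 0.00319) for Cox5a. Cox6c had 818, 704, 587, 350 and 497 CPM in RFPneg and 247, 318, 354, 335 and 288 CPM in RFPpos. Its groups touched, since RFPneg of mouse 4 lay just under RFPpos of mouse 3, and it fell by 0.88 on the log2 scale (SE 0.21, adjusted p = 0.00423). Cox8a, with 217 to 384 CPM in RFPneg and 78.3 to 197 CPM in RFPpos, fell by 0.90 (SE 0.21, adjusted p = 0.00468). Cox7c, Cox6a1 and Cox7b were also called (-0.72, -0.83 and -0.87). Not called were Cox4i1, the subunit needed early in assembly (-0.72, SE 0.32, adjusted p = 0.12), Cox6b1 (-0.34, SE 0.21, adjusted p = 0.28), Cox5b (-0.86) and Cox7a2l, a factor of respiratory supercomplexes (0.02).

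Several complex IV subunits have a second form that is made in few tissues, and these forms had few counts in both gates. Summed over the 5 libraries of a group, Cox4i2 had 5 counts in RFPneg and 0 in RFPpos, Ndufa4l2 3 and 0, Cox7a1 11 and 1, Cox6a2 12 and 10, Cox6b2 11 and 1, Cox8b 12 and 1, and Cox7b2 5 and 2. Cox8c had 0 counts in all 10 libraries, which allows up to 3 counts (counting error only). None was tested, and a fold would rest on a handful of molecules. Of their widely expressed partners, Ndufa4, which is counted here with complex IV although its symbol is that of complex I, had 20, 5, 40, 9 and 17 counts in RFPneg and 5, 7, 5, 9 and 7 in RFPpos and was not tested.

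ATP synthase consists of the F1 head, which makes ATP, and of Fo and a stalk in and on the membrane. In F1 all 5 genes were tested and 1 was called. Atp5e, the epsilon subunit of the central stalk (chr2:174461072-174464105, minus strand), had 276, 102, 173, 113 and 160 CPM in RFPneg and 62.9, 44.9, 58.3, 75.9 and 37.1 CPM in RFPpos. The groups did not overlap, and Atp5e fell by 1.50 on the log2 scale (SE 0.28, adjusted p = 0.00063), the smallest p among the members. Atp5a1, the alpha subunit of the catalytic ring, had 237 to 372 CPM in RFPneg and 202 to 309 CPM in RFPpos, lower in 2 of 5 mice, and was not called (-0.16, SE 0.20, adjusted p = 0.637). Its partner in the ring, the beta subunit Atp5b, was not called either (-0.53, SE 0.23, adjusted p = 0.109).

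Among the genes of Fo, the peripheral stalk and associated proteins, all 9 tested were below 0 and 5 were called. Atp5g3, 1 of the genes that encode the c subunit of the rotor ring, had 1015, 632, 830, 600 and 494 CPM in RFPneg and 283, 318, 453, 447 and 325 CPM in RFPpos. The groups did not overlap (log2 fold change -0.93, SE 0.20, adjusted p = 0.00214). Atp5g1, which encodes the same mature protein, was not called (-0.87, SE 0.48, adjusted p = 0.219), and Atp5g2 had 7 counts in all. Atp5k, the e subunit at the contact of ATP synthase dimers, had 310, 138, 308, 237 and 270 CPM in RFPneg and 80.9, 131, 170, 59.9 and 78.3 CPM in RFPpos. It was lower in 5 of 5 mice, and only RFPneg of mouse 2 lay within the range of RFPpos, and it fell by 1.28 on the log2 scale (SE 0.27, adjusted p = 0.00192). Atp5j2, the f subunit, fell by 0.98 (SE 0.25, adjusted p = 0.00897), with 157 to 231 CPM in RFPneg and 45.3 to 193 CPM in RFPpos. Atp5mpl and Atp5j were called as well (-0.77 and -0.89).

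**Figure D3:**
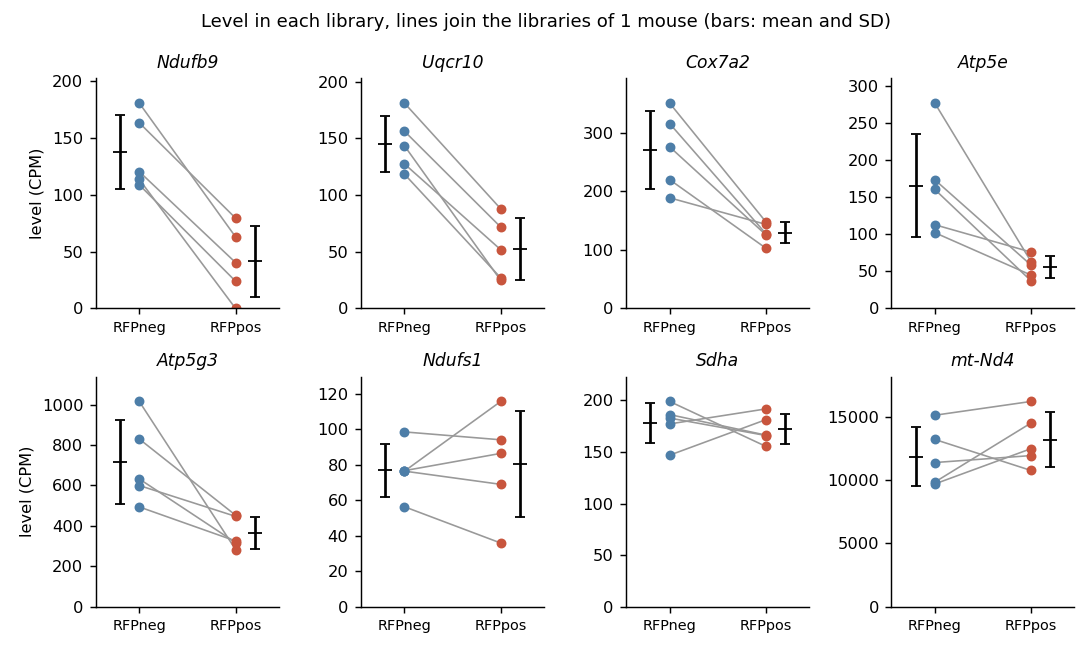
Level (CPM, y axis from 0) of 8 genes in each RFPneg and RFPpos library, with lines joining the libraries of 1 mouse and bars for mean and SD. Ndufb9, Uqcr10, Cox7a2, Atp5e and Atp5g3 show no overlap between the groups, and Ndufs1, Sdha and mt-Nd4 overlap.

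The mitochondrial genome is transcribed as long precursors that are cut into single messages. The mitochondrial subunits of complex I that were tested showed no difference beyond the spread between mice. mt-Nd4 had 15100, 13192, 11372, 9828 and 9684 CPM in RFPneg and 16189, 10745, 11921, 14492 and 12467 CPM in RFPpos. RFPpos was the higher library in 4 of 5 mice, and the groups overlapped (log2 fold change 0.17, SE 0.16, adjusted p = 0.53). mt-Nd1, with 6914 to 10852 CPM in RFPneg and 6829 to 10815 CPM in RFPpos, was at 0.04 (SE 0.16), and mt-Nd2, with 9332 to 11522 and 9168 to 12087 CPM, was at 0.02 (SE 0.16). mt-Nd5 was at -0.02 (SE 0.17, 1658 to 2290 and 1385 to 2889 CPM). mt-Nd6, the only one of these genes on the other strand of the circle, was at -0.23 (SE 0.33, 56.1 to 80.5 and 41.4 to 98.8 CPM). Cytochrome b of complex III (mt-Cytb) had 12234, 11851, 9574, 7502 and 8606 CPM in RFPneg and 10671, 7618, 8742, 9102 and 9078 CPM in RFPpos. It overlapped as well (-0.11, SE 0.16, adjusted p = 0.693). mt-Co1, the catalytic subunit of complex IV, had 2126, 1616, 1590, 1223 and 1285 CPM in RFPneg and 1860, 842, 959, 1421 and 1565 CPM in RFPpos, lower in 3 of 5 mice (-0.26, SE 0.20, adjusted p = 0.412). The mitochondrial ribosomal RNAs, which are no members, took 11.0 to 14.6% of the counts in RFPneg and 8.93 to 15.3% in RFPpos.

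The other 6 mitochondrial genes were nearly without counts. Over all 10 libraries mt-Co2 had 4 counts, mt-Atp6 5, mt-Co3 2, mt-Nd3 54, and mt-Atp8 and mt-Nd4l 0, which allows up to 3. mt-Nd3 had 5, 8, 14, 7 and 8 counts in RFPneg and 3, 2, 0, 5 and 2 in RFPpos, and its CPM did not overlap between the groups. It was tested only when all genes with at least 1 count were fitted (log2 fold change -1.67, adjusted p = 0.124).

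The annotated transcripts of GENCODE M21 were searched for copies of these genes outside the mitochondrial genome. A block on chromosome 1 carries unprocessed pseudogenes with mt-Co2 (Gm28661, 681 bases aligned), mt-Atp6 (Gm10925, 678 bases), mt-Co3 (Gm28437, 783 bases) and mt-Nd4l (Gm10222, 294 bases) at 100% identity, each reaching within 3 bases of the gene's 3′ end. The copy of mt-Nd3 (Gm28438) differs at 1 of 345 bases, T3C counted from the gene's first base. A tag read near the 3′ end of these genes matches both places equally well. The ends of mt-Atp6 (chrM:8505-8604, GRCm38, plus strand) and of its copy (chr1:24613974-24614073, minus strand) are shown for this reason, in lower case throughout because no base differs.
mt-Atp6: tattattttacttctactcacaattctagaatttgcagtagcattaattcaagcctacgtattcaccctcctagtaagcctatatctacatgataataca
Gm10925: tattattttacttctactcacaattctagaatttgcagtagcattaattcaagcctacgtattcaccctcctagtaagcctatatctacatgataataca

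The copy of mt-Nd4 on chromosome 1 (Gm28439) is also identical but ends 502 bases before the 3′ end of the gene, and mt-Nd4 had 31369 counts. The last 100 bases of mt-Nd4 (chrM:11445-11544, plus strand), which that copy lacks, are given next to the pair above.
mt-Nd4: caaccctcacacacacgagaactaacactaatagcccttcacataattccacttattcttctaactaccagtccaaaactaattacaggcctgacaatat

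mt-Co1 goes against this division. Its last 483 bases are found in Gm29216 with 1 difference (A1066T), and mt-Co1 had 3652 counts all the same. For mt-Nd1 no copy of at least 100 bases and 90% identity was found, and the nearest copies of mt-Nd2, mt-Nd5, mt-Nd6 and mt-Cytb were 96.7, 95.2, 93.6 and 92.9% identical. mt-Atp8 overlaps mt-Atp6 and mt-Nd4l overlaps mt-Nd4 on the same strand, and in each pair both proteins are known to be made from 1 shared message whose 3′ end lies in the downstream gene. For mt-Atp8 no copy was found. The pseudogenes themselves held few counts: 9 on Gm28661, 10 on Gm10925, 19 on Gm28437, 2 on Gm28438 and 0 on Gm10222. How tags that match several places were counted is not given in the sources used here, and its part in the low counts was not tested. The counts on mt-Co2, mt-Co3, mt-Atp6, mt-Atp8 and mt-Nd4l were too few to compare the gates. Where the tags of the message shared by mt-Nd4l and mt-Nd4 were counted was not tested.

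**Figure D4:**
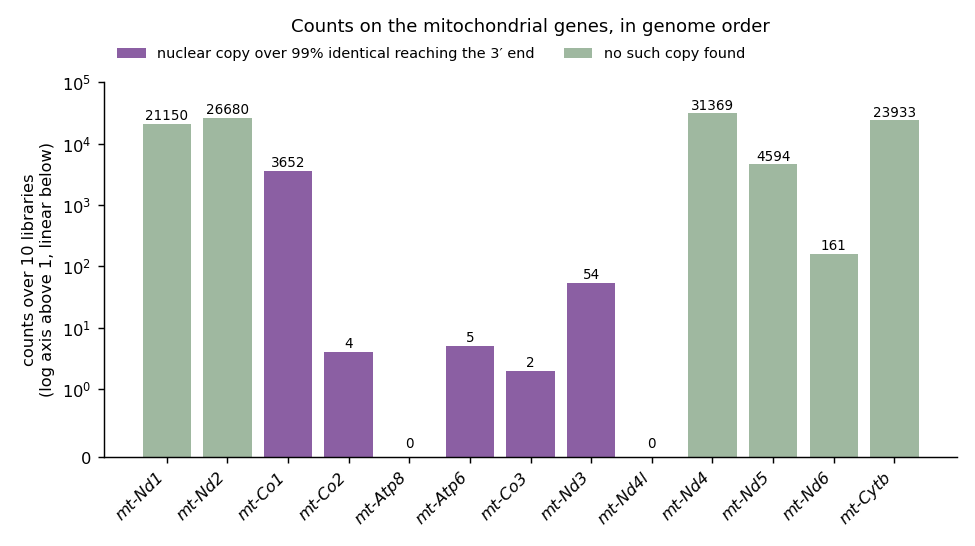
Counts over all 10 libraries (y axis, logarithmic above 1 and linear below) on each of the 13 mitochondrial genes in genome order, with purple bars where an annotated nuclear copy over 99% identical reaches the 3′ end of the gene. Genes with such a copy hold 0 to 54 counts, except mt-Co1 with 3652, and mt-Atp8 holds 0 without one.

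The nuclear members make short messages, and 11 of the 21 called genes had a longest transcript of up to 800 bases. The longest annotated transcript of the 67 tested members had a median of 1001 bases, against 3926 bases for the other tested genes. Among members of up to 800 bases, 11 of 21 were called lower (52.4%, median -0.77), and of the other tested genes of that length 33 of 100 were (33.0%, median -0.54). Another 4 of these 100 genes were called higher. Between 800 and 1500 bases 5 of 21 members (23.8%, median -0.73) and 17.9% of 279 other genes (median -0.25) were called lower. Between 1500 and 3000 bases it was 3 of 17 members (17.6%, median -0.59) and 11.5% of 1022 others (median -0.07). Above 3000 bases it was 2 of 8 members (25.0%, median -0.62) and 9.32% of 2735 others (median 0.06). In every class of this length the median of the members was below that of the other genes. The longest annotated transcript of a gene need not be the one made in these cells, so a class can hold shorter messages. The 2 called members above 3000 bases were Cox6c (3038 bases) and Ndufb2 (4371 bases). Which transcripts were made was not tested. Across the 67 members, Spearman's rho of length and log2 fold change was 0.29, across genes of the same libraries, which are not independent replicates. The part of transcript length in the lower levels was not tested.

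**Figure D5:**
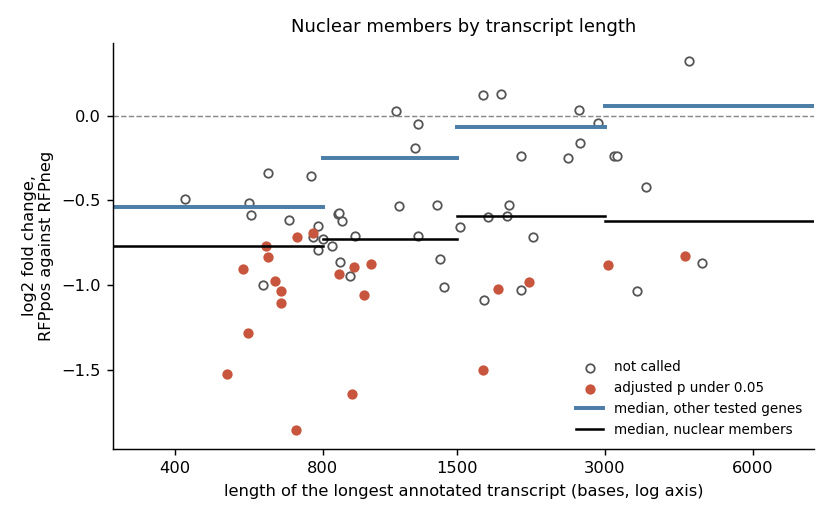
Log2 fold change (y axis) against the length of the longest annotated transcript (x axis, bases, log scale) for the 67 tested nuclear genes, filled where called lower, with the median of the members (black) and of the other tested genes (blue) in 4 classes of length. The blue lines rise from -0.54 to 0.06 with length, and the black lines lie below them at -0.77 to -0.59.

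Other genes of mitochondrial energy metabolism were taken from 7 lists. Of their 55 tested genes, 4 (7.27%) were called lower by edgeR, where 11.3% of all tested genes were, and none was called higher. Their summed shares of the counts were lower in RFPpos in 5 of 5 mice for import and structure (0.230 to 0.266% in RFPneg and 0.164 to 0.208% in RFPpos, without overlap), for assembly factors with other symbols (0.0953 to 0.133% and 0.0824 to 0.109%) and for mitochondrial ribosomal proteins (0.187 to 0.224% and 0.133 to 0.201%). The shares of the TCA cycle and of other enzymes and carriers were lower in 4 of 5 mice, that of pyruvate dehydrogenase in 3, and that of the biogenesis regulators in 1. Of the TCA cycle genes 9 of 14 were tested and 1 was called, Idh3b, a subunit of the NAD-dependent isocitrate dehydrogenase, which had 135 ± 48.2 CPM in RFPneg and 71.7 ± 33.9 CPM in RFPpos (SD, n = 5, log2 fold change -0.91, SE 0.29, edgeR adjusted p = 0.0297). The median of the 9 was -0.15. Citrate synthase (Cs), which starts the cycle, was at -0.14 (adjusted p = 0.801). None of 5 tested genes of pyruvate dehydrogenase and its regulation was called (median -0.42). Among them Pdk1, a kinase that inactivates the enzyme, was at 0.73 (adjusted p = 0.0859) and Pdha1, its catalytic subunit, at -0.95 (adjusted p = 0.0721).

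Of 8 tested genes of other respiratory chain enzymes and carriers 1 was called, Gpd2, the mitochondrial glycerol-3-phosphate dehydrogenase (199 ± 80.7 CPM in RFPneg and 91.6 ± 47.0 CPM in RFPpos, SD, n = 5, log2 fold change -1.15, SE 0.26, edgeR adjusted p = 0.00328). The ADP/ATP carriers Slc25a4 and Slc25a5 were at -0.38 and 0.11. Of 13 tested genes of mitochondrial import and structure 2 were called lower, Tomm7 of the outer membrane translocase (-0.70, adjusted p = 0.0463) and Chchd2 (-0.50, adjusted p = 0.0459), with a median of -0.21. The outer membrane channel Vdac1 was at -0.997 (adjusted p = 0.121). None of 10 tested assembly factors with other symbols (median -0.47) and none of 5 tested mitochondrial ribosomal protein genes (median -0.69) was called. Of the regulators of mitochondrial biogenesis 5 of 19 were tested and none was called (median -0.14), among them Tfam, which packages and transcribes mitochondrial DNA (-0.34, adjusted p = 0.574), and Lrpprc, which stabilises mitochondrial messages (0.81, adjusted p = 0.064).

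Promoters of the nuclear members were read from the RefSeq table of GRCm38.p6, which spans 250 bases before to 50 bases after the start site. It held 75 of the 94 members by symbol and 27025 genes in all. Letters bound by factors that are known to act on respiratory chain genes were searched on both strands: GCGCATGCG for NRF1, CCGGAAG for GABPA and ATGGCGGC for YY1. The first was found in 11 of 75 members (14.7%) and 1.95% of all genes, the second in 18 (24.0%) and 9.93%, and the third in 7 (9.33%) and 2.6%. At least 1 of the 3 was found in 8 of the 18 called members in the table (44.4%) and in 12 of the 36 members tested and not called (33.3%). Members of the pathway held these letters more often than all genes did. The NRF1 letters were in 3 of the called and 3 of the uncalled members (16.7% and 8.33%). Those of GABPA were in 6 and 7 (33.3% and 19.4%), and those of YY1 in 1 and 4 (5.56% and 11.1%). The difference between called and uncalled members was not tested. The promoters of 3 called genes are shown, with capitals for the matched letters. That of Atp5k (chr5:108434350-108434649, minus strand) holds the NRF1 letters on both strands, overlapping, and those of GABPA on the other strand, that of Ndufa11 (chr17:56717512-56717811, plus strand) the NRF1 letters on both strands, and that of Cox8a (chr19:7217567-7217866, minus strand) those of GABPA at 2 places on the other strand.
Atp5k: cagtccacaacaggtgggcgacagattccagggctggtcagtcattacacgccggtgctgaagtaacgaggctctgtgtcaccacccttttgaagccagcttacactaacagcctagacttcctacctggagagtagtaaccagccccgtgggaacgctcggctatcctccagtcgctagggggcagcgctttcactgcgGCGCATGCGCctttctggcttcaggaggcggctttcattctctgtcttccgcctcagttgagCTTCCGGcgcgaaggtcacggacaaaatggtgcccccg
Ndufa11: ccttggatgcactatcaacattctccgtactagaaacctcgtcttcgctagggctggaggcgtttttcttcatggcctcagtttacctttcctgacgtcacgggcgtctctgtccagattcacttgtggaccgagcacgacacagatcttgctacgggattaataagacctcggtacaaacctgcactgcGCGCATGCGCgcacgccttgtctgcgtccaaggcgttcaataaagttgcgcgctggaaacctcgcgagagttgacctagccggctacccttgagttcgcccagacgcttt
Cox8a: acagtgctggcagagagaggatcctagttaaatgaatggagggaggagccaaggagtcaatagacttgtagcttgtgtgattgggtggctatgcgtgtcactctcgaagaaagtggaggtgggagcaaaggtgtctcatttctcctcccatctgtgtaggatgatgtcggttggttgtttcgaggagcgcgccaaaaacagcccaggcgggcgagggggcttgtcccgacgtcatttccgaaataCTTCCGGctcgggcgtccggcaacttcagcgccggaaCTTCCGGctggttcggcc

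A match of letters is no evidence of binding. Uqcr10, Cox7a2 and Atp5g3, which were called as well, held none of the 3 in this window.

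The calls depended on the scale in 1 respect. When library sizes were taken from the 20 microglia markers, which were higher in RFPpos, the median of all tested genes shifted to -1.09, that of the nuclear members to -1.79 and that of the mitochondrial members to -1.10. This scaling moves all genes by about the same amount, so it bears on the counts of calls and not on the order of these medians. On this scale 66 of 67 nuclear and 7 of 7 mitochondrial genes were called lower, as were 2943 of all 4210 tested genes (69.9%). Of the 21 called genes, 13 were called whichever mouse was left out, and all 21 were below 0 in each of these fits. Calls were lost for Ndufb6 without mouse 3, for Atp5mpl without mouse 2 or 3, for Cox6a1 without mouse 3 or 5, for Cox7b without mouse 1 or 3, for Ndufb3 and Ndufb2 without mouse 1, 2 or 3, for Atp5j without mouse 1, 2, 3 or 5, and for Ndufb4 without mouse 1, 2, 4 or 5.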

How the data were processed

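Bulk 3′ RNA sequencing of 10 libraries, RFPneg and RFPpos cells sorted from the same 5 mice, was analysed; 2 single-cell samples were not used. The authors deposited whole-number counts per gene, not normalized, from the Lexogen QuantSeq FWD pipeline for libraries with unique molecular identifiers. The submitters' processing notes name mm10; the aligner and annotation of the bulk data are not given in the sources used here. Symbols for 47224 of 47643 identifiers came from GENCODE M21 (GRCm38). Reads on no gene (32.1 to 48.6% of a library) and ambiguous reads (0.295 to 0.436%) stayed out of library sizes.

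Counts were tested with edgeR 4.0.16 in R 4.3.3 by the quasi-likelihood test, with TMM scaling and the mouse as a block, on 4210 genes that reached 40.7 CPM (10 counts in the median library) in at least 5 libraries and 15 counts in all, of 18571 with at least 1 count. Benjamini-Hochberg adjustment ran over these genes. The study's methods used edgeR's likelihood ratio test, a filter not repeated here and a fold threshold. Alternatives were that test, DESeq2 1.42.0, limma 3.58.1 with voom, other library sizes, no filter, no block, a fold threshold and each mouse left out. Nuclear copies were searched with BLAST 2.17.0 among annotated transcripts only. The fit was tested on simulated counts.

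The methods state that both populations came from the same mice, so libraries were paired by mouse. Once group means were subtracted, the 2 libraries of a mouse correlated at 0.22, -0.04, 0.14, -0.01 and 0.02. The highest correlation with a library of another mouse was -0.00016, 0.098, 0.11, 0.031 and 0.075, which was above the same-mouse value for mice 2, 4 and 5. The genes given with values are the mitochondrial members, in each role the tested gene with the highest mean CPM and up to 3 called genes with the smallest p, and the tissue-restricted complex IV forms with their partners; others named were chosen after their values were seen. The values of 1 member are not reported here. Members and lists were chosen with earlier results of these data known. At this depth 27 nuclear members (0 to 124 counts) and 6 mitochondrial members (0 to 54) could not be tested. Overlapping genes and near-identical copies share reads that these counts do not tell apart.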

Additional observations from a re-analysis of the deposited data

Results flagged for a closer look

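In 64 groups of 5 libraries looked at (the tested genes of the naming rule and the summed levels), 3 had 1 library far from the other 4, and chance alone gives about 5% of groups. All 3 were libraries of mouse 1 and mitochondrial genes of complex I. mt-Nd5 stood at 2290 CPM in RFPneg of mouse 1, against 1658 to 1724 CPM in the other RFPneg libraries, and at 2889 CPM in RFPpos of mouse 1, against 1385 to 1749 CPM. mt-Nd6, which lies next to mt-Nd5 on the opposite strand and overlaps its end, stood at 98.8 CPM in RFPpos of mouse 1, against 41.4 to 55.9 CPM. RFPpos of mouse 1 also had the highest share of counts on the mitochondrial chromosome (20.9%, against 13.1 to 16.1% in the other RFPpos libraries).

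Among pseudogenes outside the comparisons, Gm28437, the nuclear copy of mt-Co3, had 18 counts in RFPpos of mouse 4 and 0 to 1 in each of the other 9 libraries.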

How the results depend on the processing

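The number of nuclear members called lower, 21, was 27 by the likelihood ratio test, 25 with voom, 16 by DESeq2, 21 with plain library sizes, 17 without a filter and 14 to 27 with each mouse left out. It was 66 with library sizes from the 20 microglia genes and 9 with the fold threshold. Without the replicate block, 22 were called, the 21 among them, and the mitochondrial count stayed at 0. The mitochondrial members called lower, 0, became 7 with the microglia genes. The log2 difference of the nuclear sum was -1.77 relative to the microglia genes and -0.84 to -0.57 with each mouse left out, and that of the ratio -0.80 to -0.58. The mitochondrial sum, 0.01, changed sign with reads on no gene included (-0.14), relative to the microglia genes (-1.06) and with a mouse left out (-0.040 to 0.099). Values near 0 changed sign: Ndufs1 was -0.016 by DESeq2, -0.028 with library sizes, -1.05 with the microglia genes and -0.11 to 0.13 with a mouse left out. Sdha was 0.021 without a filter and -0.16 to 0.034 with a mouse left out, and mt-Cytb -0.20 to 0.015. mt-Nd1 was -0.028 with library sizes, -1.04 with the microglia genes and -0.037 to 0.11 with a mouse left out. mt-Nd2 was -0.012 by DESeq2, -0.049 with library sizes, -1.06 with the microglia genes and -0.047 to 0.12 with a mouse left out. mt-Nd4 was -0.91 with the microglia genes. mt-Nd5 was 0.043 without a filter, 0.040 without the replicate block and -0.13 to 0.067 with a mouse left out. The cause was not tested. Of the 21 called genes, 12 were called under all 13 settings that refit the genes (the fold threshold not among them).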
